A study of Mus musculus with 6 samples.

Results

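The 34 genes described here encode the NF-kB transcription factors, their inhibitors, the adaptors and kinases that lead to them, and genes that NF-kB induces, many of which act back on the pathway. They were found by gene name among the 53546 genes of the deposited count tables, and all 34 were present and passed the filter on low counts. RNA came from liver non-parenchymal cells, the fraction of endothelial cells, Kupffer cells, stellate cells and other leukocytes, of male mice. The 3 SRA-/- libraries are labelled as deficient in scavenger receptor A, the product of Msr1, with which macrophages take up modified lipoproteins and other ligands, and 3 more libraries are wild type. Both genotypes received acetaminophen, a drug that kills hepatocytes at high dose, by intraperitoneal injection of 400 mg/kg, and RNA was taken 6 h later. The comparison of SRA-/- with wild type asks how the receptor bears on liver inflammation after this injury. Every library had the drug, so a response to it cannot be read from these values. Age, strain background and the disrupted exon are not given in the labels, and the labels call the replicates biological.

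NF-kB is a family of dimeric transcription factors held in the cytoplasm by IκB proteins. Receptors of the Toll-like and interleukin 1 type signal through MYD88, IRAK kinases and TRAF6, and receptors of tumour necrosis factor through other TRAF proteins, to a kinase complex (IKK) that marks IκB for destruction, which frees the dimers. Among the first genes that NF-kB then induces are its own inhibitors and enzymes that remove ubiquitin chains from the signalling complexes. In the liver, Kupffer cells, recruited leukocytes and endothelial cells all use this pathway, so in bulk RNA fewer cells of a type and less RNA per cell cannot be told apart.

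Sequence was not used to choose the genes. RefSeq promoter windows (GRCm38.p6, 250 bases before to 50 bases after a transcription start) were at hand for 29 of the 34 genes. A narrow κB pattern (GGG, any 2 bases, TT, any 1 base, CC, on either strand) was found in the windows of 12 of the 29 (41.4%), against 5.48% of 27025 genes. A wide pattern that contains the narrow one (GGG, any 5 bases, CC, on either strand) was found in 25 of the 29 (86.2%), against 53.5% of all genes. A match is a run of letters and not a measured binding site. The 100 bases before the 5'-most start follow for 6 genes with the narrow pattern there, from 5' to 3' on the gene's strand. For contrast they are also given for Traf1 and Irak3, which had no match to it anywhere in their windows and the largest log2 fold changes of the 34 genes. Capitals mark matches to the narrow pattern, and a run of 11 capitals holds 2 overlapping matches.
Nfkb2, chr19:46304637-46304736, plus strand: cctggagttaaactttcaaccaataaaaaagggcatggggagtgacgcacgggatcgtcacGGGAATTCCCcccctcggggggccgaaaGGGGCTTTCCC
Rel, chr11:23770970-23771069, minus strand: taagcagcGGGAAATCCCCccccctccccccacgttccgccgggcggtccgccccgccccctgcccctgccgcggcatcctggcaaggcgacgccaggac
Nfkbia, chr12:55492648-55492747, minus strand: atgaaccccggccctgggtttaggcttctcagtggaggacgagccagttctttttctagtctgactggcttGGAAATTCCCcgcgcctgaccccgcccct
Tnip1, chr11:54962941-54963040, minus strand: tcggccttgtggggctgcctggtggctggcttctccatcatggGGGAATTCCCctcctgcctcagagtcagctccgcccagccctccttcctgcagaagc
Tnfaip3, chr10:19015411-19015510, minus strand: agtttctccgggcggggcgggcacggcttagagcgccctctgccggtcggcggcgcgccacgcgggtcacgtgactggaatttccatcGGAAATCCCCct
Traf3, chr12:111166270-111166369, plus strand: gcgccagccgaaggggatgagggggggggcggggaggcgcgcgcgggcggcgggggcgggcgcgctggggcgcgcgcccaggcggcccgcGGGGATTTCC
Traf1, chr2:34961773-34961872, minus strand: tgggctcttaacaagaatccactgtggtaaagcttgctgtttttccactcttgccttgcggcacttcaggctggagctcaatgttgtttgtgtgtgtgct
Irak3, chr10:120202131-120202230, minus strand: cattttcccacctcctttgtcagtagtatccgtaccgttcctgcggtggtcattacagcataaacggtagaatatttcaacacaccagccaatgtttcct
In Rel, Tnfaip3 and Traf3 the same site was found, written GGAAATCCCC on one strand and GGGGATTTCC on the other. Nfkb2 and Tnip1 shared the palindrome GGGAATTCCC, and Nfkbia and Map3k7 shared GGAAATTCCC. All 3 genes of the ubiquitin-editing class and 5 of 7 of the TRAF and kinase tier held the narrow pattern, against 0 of 5 induced genes and 0 of 7 adaptor and IRAK genes. The wide pattern did not set these classes apart. It was found in all 3 ubiquitin-editing genes, 6 of 7 of the TRAF and kinase tier, 4 of 5 induced genes and 6 of 7 adaptor and IRAK genes. Sequence outside the windows was not searched. The 12 genes with the narrow pattern had a median log2 fold change of 0.11 and the 17 genes with a window but without it 0.18.

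Libraries held 23757203 to 44003902 counts. Hepatocyte markers were present in each of them, and albumin (Alb) alone made up 31452 to 63085 CPM (counts scaled to the library's total) in SRA-/- and 17581 to 49939 CPM in wild type libraries. Markers of endothelial, Kupffer and stellate cells were detected in all 6 libraries. Msr1 had 40.2, 33.6 and 42.0 CPM in SRA-/- replicates 1, 2 and 3 and 38.6, 73.5 and 114 CPM in wild type replicates 1, 2 and 3, so wild type replicate 1 lay within the SRA-/- range (log2 fold change -0.96 ± 0.33, SE, adjusted p 0.9999 by edgeR). A count over all exons does not show whether a working receptor is made, so genotypes are given as labelled. Wild type replicate 1 also had the lowest summed Kupffer cell markers (638 CPM, against 972 to 1896 CPM in the other libraries), endothelial markers (2923 CPM, against 3282 to 6649 CPM) and neutrophil markers (45.3 CPM, against 83.1 to 304 CPM). It was lowest too in B cell (11.01 CPM), T and NK cell (5.26 CPM) and cholangiocyte markers (23.9 CPM). The next library was close for B cell (11.2 CPM, wild type replicate 2) and cholangiocyte markers (24.2 CPM, SRA-/- replicate 2). Marker sums use library totals. On the scaling used for the 34 genes, wild type replicate 1 would be lowest in neither B cell nor cholangiocyte markers. It was not lowest in monocyte, stellate, dendritic cell or hepatocyte markers, and its hepatocyte sum (67188 CPM) was the highest of the wild type libraries. Mitochondrial genes made up 19.8% of its counts, against 6.64% to 21.1% in the other libraries.

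None of the 34 genes passed the test between genotypes. With edgeR's quasi-likelihood test and adjustment over 20541 tested genes, 0 of 34 had an adjusted p under 0.05, where the background was 0.0487% of tested genes (10 genes). DESeq2 and limma-voom with quality weights also called 0 of the 34, with backgrounds of 0.375% and 0.365%. Before adjustment 3 genes had a p under 0.05 and were higher in SRA-/- libraries, Traf1, Irak3 and Irak2 (8.82%, against 2.32% of all tested genes), and 0 were lower (background 0.896%). The same 3 genes were higher in every SRA-/- library than in any wild type library, where 3.97% of all tested genes were, and 0 were lower in every one (background 3.33%). Of the 34 genes, 31 had a log2 fold change above 0 (91.2%, against 48.3% of all tested genes), with a median of 0.17 against -0.010 over all tested genes. Without wild type replicate 1 those values were 24 genes (70.6%, against 52.4%) and a median of 0.066 against 0.020.

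**Figure D1:**
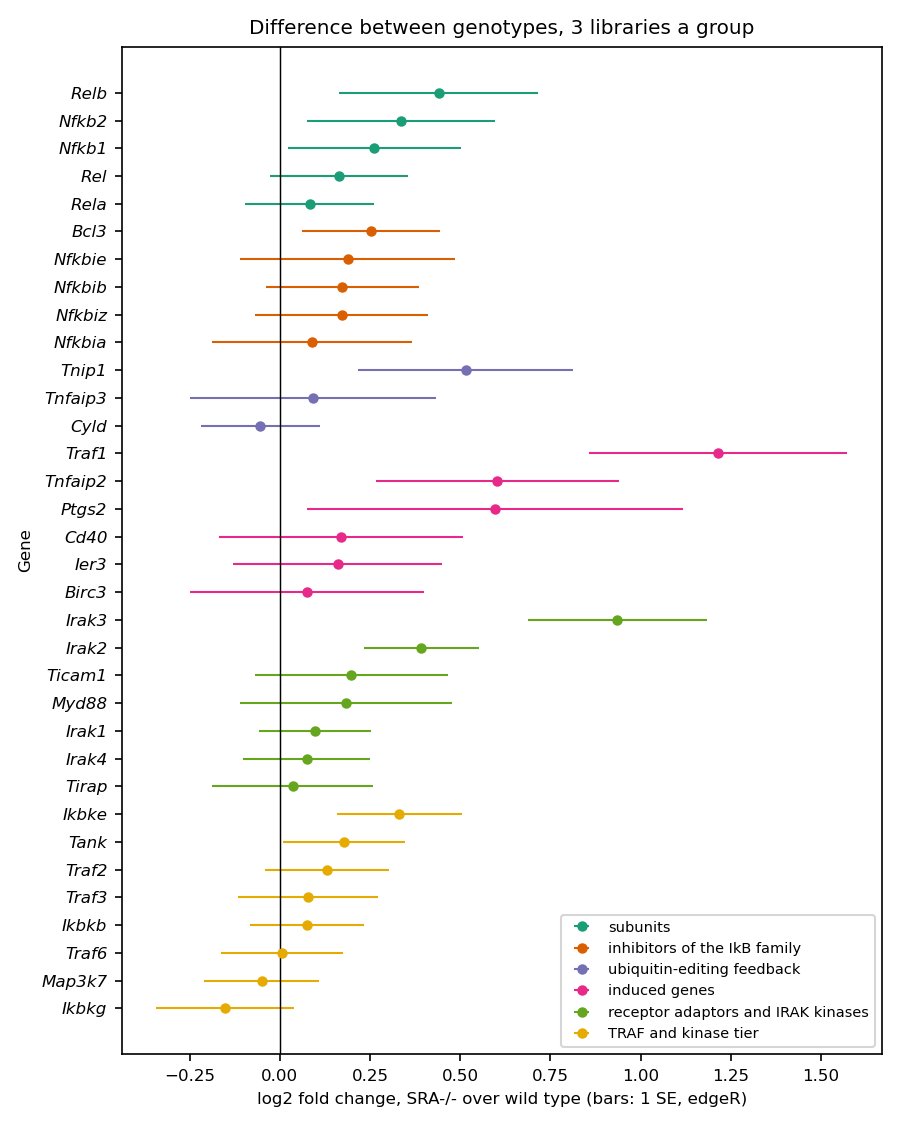
Log2 fold change of each of the 34 genes, SRA-/- over wild type, with 1 SE from edgeR on the horizontal axis and genes grouped by role (colours) down the page. Values run between -0.15 for Ikbkg and 1.22 for Traf1, and Traf1 and Irak3 stand farthest from 0.

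Traf1, an adaptor of tumour necrosis factor receptors that NF-kB induces (chromosome 2, 34831762 to 34851784, mm39), had 11.8, 6.35 and 7.22 CPM in SRA-/- replicates 1, 2 and 3, against 2.30, 3.30 and 5.33 CPM in wild type replicates 1, 2 and 3. Every SRA-/- library lay above every wild type library, with SRA-/- replicate 1 well above the rest. Its mean was 8.47 ± 2.95 CPM in SRA-/- and 3.65 ± 1.54 CPM in wild type cells (SD, n = 3 each). On the log2 scale the difference was 1.22 ± 0.36 (SE). By edgeR the unadjusted p was 0.00732 and the adjusted p 0.959, and adjusted p-values were 0.169 by DESeq2 and 0.0562 by limma-voom. With 1 library left out, its log2 fold change ran from 0.89 (without SRA-/- replicate 1) to 1.601 (without wild type replicate 3), and the unadjusted p by edgeR stayed under 0.05 in all 6 fits. It was the least abundant of the 34 per length, at 0.960 RPKM (CPM per kilobase of exon) in SRA-/- and 0.413 RPKM in wild type cells. Its counts were 544, 190 and 159 in SRA-/- replicates 1, 2 and 3 and 67, 87 and 180 in wild type replicates 1, 2 and 3.

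Irak3 (chromosome 10, 119977553 to 120038035, mm39), a member of the IRAK family known as a brake on Toll-like receptor signalling in macrophages, had 8.12, 12.5 and 7.90 CPM in SRA-/- replicates 1, 2 and 3, against 4.36, 4.97 and 5.54 CPM in wild type replicates 1, 2 and 3. The wild type libraries lay close together, and SRA-/- replicate 2 was the highest. Its mean was 9.49 ± 2.57 CPM in SRA-/- and 4.96 ± 0.59 CPM in wild type cells (SD, n = 3 each). The log2 fold change was 0.94 ± 0.25 (SE), and by edgeR the unadjusted p was 0.00411 and the adjusted p 0.803. Adjusted p-values were 0.127 by DESeq2 and 0.116 by limma-voom. Leaving out 1 library gave log2 fold changes between 0.69 (without SRA-/- replicate 2) and 1.05 (without SRA-/- replicate 3), each with an unadjusted p under 0.05. Exons of Irak3 overlap those of Tmbim4 and Gm47009, and reads were counted without strand.

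Irak2, the kinase that sustains the signal after IRAK1 has been used up (chromosome 6, 113615428 to 113671987, mm39), had 72.4, 67.1 and 61.0 CPM in SRA-/- replicates 1, 2 and 3, against 54.7, 47.8 and 50.2 CPM in wild type replicates 1, 2 and 3. The groups did not overlap, and the gap between the nearest libraries was small. Its log2 fold change was 0.39 ± 0.16 (SE), and by edgeR the unadjusted p was 0.0353 and the adjusted p 0.9999. The unadjusted p was 0.131 without SRA-/- replicate 1, 0.0648 without SRA-/- replicate 2, 0.140 without wild type replicate 2 and 0.0631 without wild type replicate 3, while the log2 fold change stayed between 0.33 and 0.46 over the 6 fits with a library left out. With library totals alone as the scaling the log2 fold change was 0.38 and the unadjusted p 0.0704. Exons of Irak2 overlap those of Gm43963.

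Of the leukocyte marker lists, the neutrophil and B cell sums stood apart between the genotypes, the neutrophil sum only with G0s2 counted. Summed neutrophil markers were 304, 123 and 247 CPM in SRA-/- replicates 1, 2 and 3 and 45.3, 83.1 and 91.3 CPM in wild type replicates 1, 2 and 3, and of the 14 genes 11 were tested and 10 were higher at an unadjusted p under 0.05 (background 2.32% of all tested genes), with Ly6g and Camp at 0 in at least 1 library. G0s2, the most abundant of them, had 75.2, 59.8 and 28.8 CPM in SRA-/- replicates 1, 2 and 3 and 22.9, 30.5 and 16.8 CPM in wild type replicates 1, 2 and 3. Its values overlapped between the groups. Without G0s2 the neutrophil sum of SRA-/- replicate 2 would lie below that of wild type replicate 3. Summed B cell markers were 21.8, 32.0 and 20.0 CPM in SRA-/- libraries and 11.01, 11.2 and 14.1 CPM in wild type libraries, with 4 of 6 higher at an unadjusted p under 0.05. Neither sum over its whole list overlapped between the groups. Summed monocyte markers did overlap (2651 to 3798 CPM in SRA-/- and 2804 to 3286 CPM in wild type libraries). Fn1 alone made up 2465 to 3423 CPM of that sum in SRA-/- and 2662 to 3055 CPM in wild type libraries. The monocyte sum is thus mostly the value of 1 gene. Summed dendritic cell markers (30.6 to 43.6 CPM in SRA-/- and 32.9 to 46.6 CPM in wild type libraries) overlapped too. Of that sum Zbtb46 made up 16.4 to 21.6 CPM in SRA-/- and 22.8 to 26.6 CPM in wild type libraries. Summed T and NK cell markers also overlapped (9.54 to 14.5 CPM in SRA-/- and 5.26 to 10.6 CPM in wild type libraries). Traf1, Irak2, the neutrophil sum and the cholangiocyte sum (66.4 CPM) were highest in SRA-/- replicate 1. Irak3, the B cell sum and the T and NK cell sum were highest in SRA-/- replicate 2. Summed Kupffer cell markers were highest in SRA-/- replicate 2 too, and overlapped between the groups at 972 to 1896 CPM in SRA-/- and 638 to 1873 CPM in wild type libraries. The part of these cell types in Traf1, Irak3 and Irak2 was not tested.

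**Figure D2:**
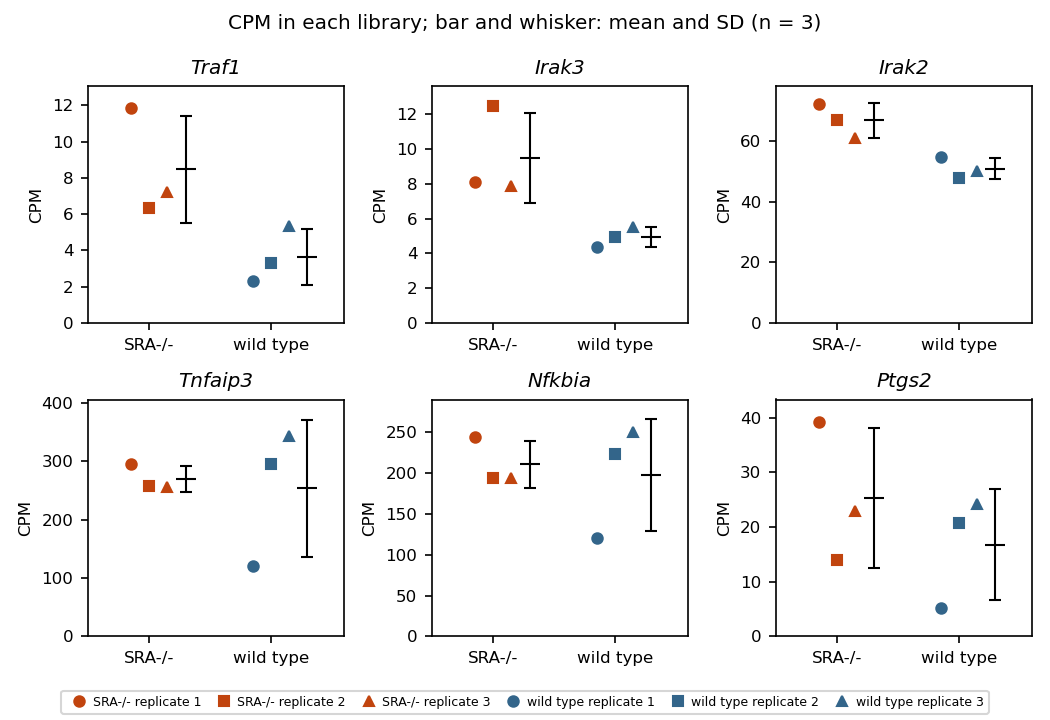
CPM of Traf1, Irak3, Irak2, Tnfaip3, Nfkbia and Ptgs2 in each library (vertical axes from 0), SRA-/- left and wild type right, with mean and SD of 3 libraries. The groups are apart for Traf1, Irak3 and Irak2, while for Tnfaip3, Nfkbia and Ptgs2 wild type replicate 1 lies below all other libraries.

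None of the 5 transcription factor subunits passed the test, and each overlapped between the groups. Rela, which encodes the main activating subunit, was the most abundant per length, at 39.7 RPKM in SRA-/- and 37.5 RPKM in wild type cells. It had 127, 108 and 131 CPM in SRA-/- replicates 1, 2 and 3 and 100.3, 119 and 126 CPM in wild type replicates 1, 2 and 3, and the groups overlapped (log2 fold change 0.08 ± 0.18, SE). Rel, the subunit prominent in lymphocytes and myeloid cells, had 90.7 to 97.4 CPM in SRA-/- and 64.5 to 95.5 CPM in wild type libraries. Relb and Nfkb2, the pair of the non-canonical pathway, had log2 fold changes of 0.44 ± 0.28 and 0.34 ± 0.26, and Nfkb1, which encodes the partner of RELA, 0.26 ± 0.24 (SE). All 5 were lowest in wild type replicate 1, and 4 of them were highest in SRA-/- replicate 1.

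None of the 5 inhibitors of the IκB family passed the test either, and each overlapped between the groups. Nfkbia, which encodes IκBα, was the most abundant of all 34 genes per length, at 131 RPKM in SRA-/- and 123 RPKM in wild type cells. It had 244, 195 and 194 CPM in SRA-/- replicates 1, 2 and 3 and 120.3, 224 and 249.97 CPM in wild type replicates 1, 2 and 3. Its log2 fold change of 0.09 ± 0.28 (SE) was -0.16 without wild type replicate 1. Nfkbiz, an atypical nuclear member that helps to switch on secondary response genes, followed at 83.2 RPKM in SRA-/- and 73.9 RPKM in wild type cells, with a log2 fold change of 0.17 ± 0.24 (SE). Bcl3, another nuclear member, had 0.25 ± 0.19, Nfkbie 0.19 ± 0.30 and Nfkbib 0.17 ± 0.21. Exons of Nfkbib overlap those of Sirt2 and Ccer2, and exons of Bcl3 those of Gm16175.

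Among the ubiquitin-editing feedback genes, Tnfaip3, which encodes an enzyme that shuts off NF-kB signalling, had 296, 258 and 256 CPM in SRA-/- replicates 1, 2 and 3 and 121, 295 and 344 CPM in wild type replicates 1, 2 and 3. Wild type cells thus held both the lowest and the highest library, and the SD was 22.4 CPM in SRA-/- and 117 CPM in wild type cells. The log2 fold change was 0.09 ± 0.34 (SE), and -0.23 without wild type replicate 1. Tnip1, whose product binds that enzyme, had 57.8, 37.2 and 48.3 CPM in SRA-/- libraries and 19.4, 35.2 and 45.7 CPM in wild type libraries, a log2 fold change of 0.51 ± 0.30 with an unadjusted p of 0.117 by edgeR and 0.0270 by limma-voom. Cyld, another deubiquitinase that restrains the pathway, had 23.3 to 29.6 CPM in SRA-/- and 27.7 to 28.3 CPM in wild type libraries.

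The 6 induced genes had log2 fold changes above 0 with all 6 libraries, and 5 of them overlapped between the groups. Without wild type replicate 1, Birc3 was at -0.22, Cd40 at -0.12 and Ier3 at -0.089, and Birc3 was also at -0.045 without SRA-/- replicate 1 and Cd40 at -0.065 by limma-voom. Ier3, an early response gene of cell survival, was the most abundant per length, with 83.0, 79.7 and 51.8 CPM in SRA-/- replicates 1, 2 and 3 and 38.9, 71.4 and 81.9 CPM in wild type replicates 1, 2 and 3. Ptgs2, the inducible cyclooxygenase, had 14.0 to 39.2 CPM in SRA-/- and 5.19 to 24.3 CPM in wild type libraries, with a log2 fold change of 0.60 ± 0.52 (SE). Tnfaip2 had 123 to 170 CPM in SRA-/- and 45.3 to 124 CPM in wild type libraries, and its log2 fold change of 0.60 ± 0.34 was 0.86 without wild type replicate 3, with an unadjusted p of 0.0392 by edgeR. Birc3, a ubiquitin ligase that blocks cell death, and Cd40, the costimulatory receptor of antigen-presenting cells, had 0.08 ± 0.32 and 0.17 ± 0.34. Cd40 was scarce, at 60 to 213 counts a library, and Birc3 was highest in wild type replicate 3 at 115 CPM.

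The receptor adaptors other than the IRAK genes above had log2 fold changes between 0.04 and 0.20. Irak1, the most abundant of the class by length in wild type cells, had 66.4, 74.4 and 70.2 CPM in SRA-/- replicates 1, 2 and 3 and 62.4, 69.1 and 65.6 CPM in wild type replicates 1, 2 and 3. Its log2 fold change was 0.10 ± 0.16, and that of Irak4, the kinase upstream of it, 0.07 ± 0.18 (SE). Myd88, the adaptor of most Toll-like receptors, had 23.6 to 32.0 CPM in SRA-/- and 13.2 to 31.6 CPM in wild type libraries, with its lowest value in wild type replicate 1. Ticam1, the adaptor of the pathway that does not use MYD88, and Tirap, which brings MYD88 to the membrane, were not lowest in that library. For Ticam1 wild type replicate 1 was the second highest library at 20.8 CPM, below 23.4 CPM in SRA-/- replicate 2, and for Tirap it was the highest at 12.2 CPM.

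The TRAF and kinase tier varied least. Ikbkg, the regulatory subunit of IKK and the most abundant per length of the tier, had 196, 230.2 and 253 CPM in SRA-/- replicates 1, 2 and 3 and 259, 248.5 and 246 CPM in wild type replicates 1, 2 and 3, a log2 fold change of -0.15 ± 0.19 (SE), though its exons overlap those of G6pdx. Ikbkb, a catalytic subunit of IKK, had 90.0 to 96.6 CPM in SRA-/- and 83.0 to 93.0 CPM in wild type libraries. It lies 16.8 Mb from Msr1 on chromosome 8, and Cyld of the ubiquitin-editing class lies 49.3 Mb from Msr1 on that chromosome. Traf6, Map3k7 (the kinase TAK1) and Traf3 had log2 fold changes of 0.01 ± 0.17, -0.05 ± 0.16 and 0.08 ± 0.19, and Tank and Traf2 had 0.18 ± 0.17 and 0.13 ± 0.17 (SE). Ikbke, an IKK-related kinase that is itself inducible, was the highest of the tier at 0.33 ± 0.17, with an unadjusted p of 0.0866 by edgeR and 0.0145 by limma-voom. In 6 of the 8 genes SRA-/- replicate 2 was the highest library.

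**Figure D3:**
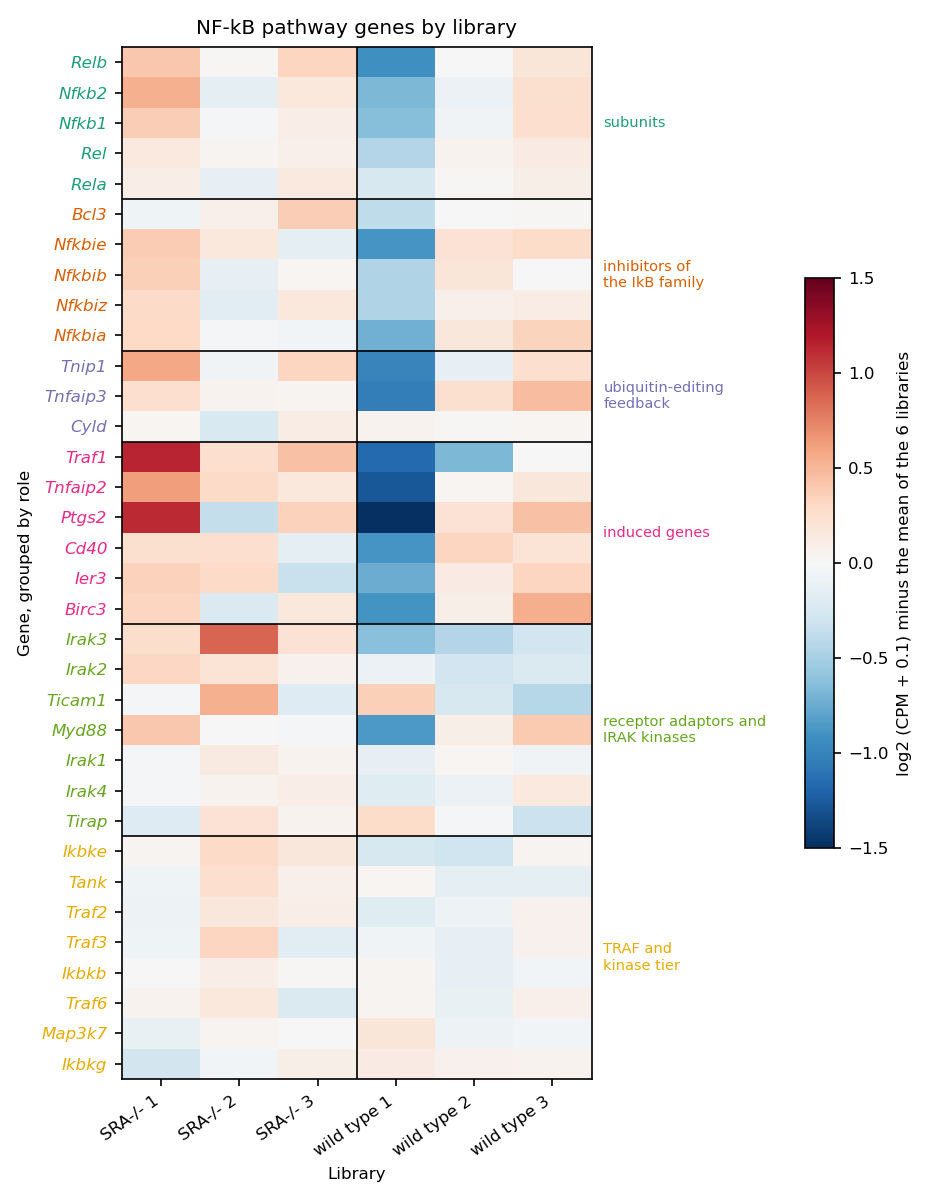
Log2 (CPM + 0.1) of each of the 34 genes minus its mean over the 6 libraries, SRA-/- libraries left and wild type libraries right, genes grouped by role. Subunits, inhibitors and induced genes are low in wild type replicate 1 and mostly high in SRA-/- replicate 1, while the TRAF and kinase tier stays near 0 throughout.

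The role classes differed in how far their genes varied between libraries, and much of that went with a single library. The ratio of the highest to the lowest library had a median of 3.24 for induced genes (2.14 for Ier3 to 7.55 for Ptgs2), 2.84 for ubiquitin-editing genes (1.27 for Cyld to 2.98 for Tnip1), 2.01 for subunits, 1.75 for inhibitors, 1.51 for adaptors and IRAK genes and 1.31 for the TRAF and kinase tier (1.16 for Ikbkb to 1.51 for Ikbke). Over all tested genes it was 1.95, and it was 1.68 over the 13778 with a mean of at least 2 CPM. Wild type replicate 1 was the lowest library for 23 of the 34 genes (67.6%, against 22.8% of all tested genes). The share was 26.3% of genes with a mean of at least 2 CPM, and 51.8% of the 56 other pathway genes described below. Among the 23 were all 5 subunits, all 5 inhibitors and all 6 induced genes, and 1 of the 8 genes of the TRAF and kinase tier. Without wild type replicate 1 the median ratio was 1.65 for induced genes, 1.45 for adaptors and IRAK genes, 1.37 for inhibitors, 1.35 for ubiquitin-editing genes, 1.34 for subunits and 1.29 for the TRAF and kinase tier. The order of the classes thus changed, and all 6 medians lay below the 1.75 of all tested genes, while that of induced genes was above the 1.55 of genes with at least 2 CPM. The median gene of the induced class deviated from its own 6-library mean by 0.49, 0.25 and 0.16 log2 units in SRA-/- replicates 1, 2 and 3, and by -1.04, 0.11 and 0.26 in wild type replicates 1, 2 and 3. Wild type replicates 2 and 3 thus lay within or near the SRA-/- range, and wild type replicate 1 lay apart. That library was also lowest in Kupffer, endothelial, neutrophil and T and NK cell markers, as given above. In B cell and cholangiocyte markers it was lowest by a small margin, on library totals only. The part of these cell types, and of its mitochondrial share, in its low values was not tested.

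**Figure D4:**
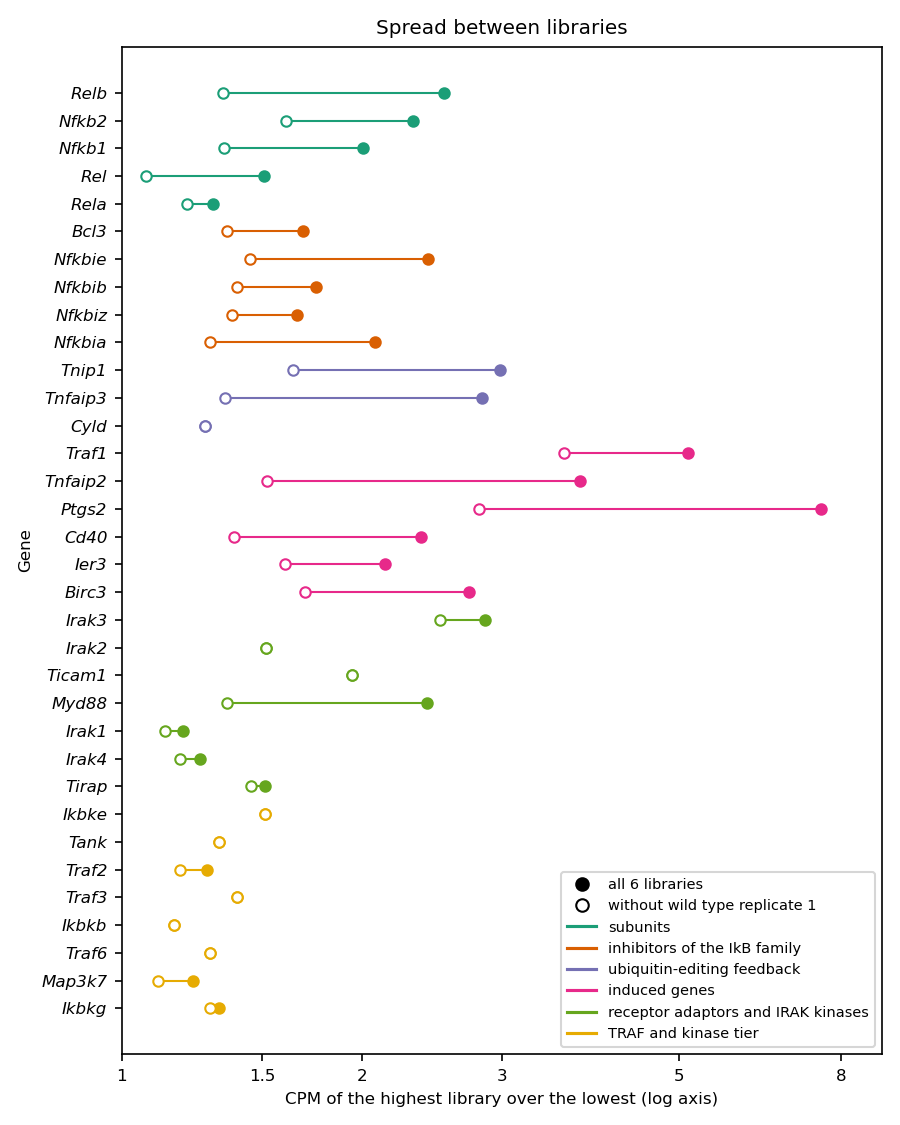
Ratio of the highest to the lowest library in CPM (log axis) for each of the 34 genes, over all 6 libraries (filled) and without wild type replicate 1 (open). Ptgs2 has 7.55 with all libraries and 2.81 without that one, and ratios in the TRAF and kinase tier stay between 1.16 and 1.51 with all libraries.

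Of 56 other genes of the pathway, 0 passed edgeR's test over all genes. Before adjustment 3 had a p under 0.05 and were higher in SRA-/- libraries (5.36%, against 2.32% of all tested genes) and 0 were lower, with a median log2 fold change of 0.06 and 37 of 56 above 0 (66.1%, against 48.3% of all tested genes). The groups did not overlap for Tnfrsf1b, Il1rl1 and Zc3h12a, which were higher in every SRA-/- library (3 of 56, where the background was 3.97%), or for Tab3 and Commd1, which were lower (2 of 56, where it was 3.33%). Both counts are near the background. Of these, Zc3h12a, Tab3 and Commd1 were named after their values were seen. Tnfrsf1b, one of the receptors of tumour necrosis factor, found mainly on leukocytes and endothelium (chromosome 4, 144940033 to 144973440, mm39), had 164, 143 and 168 CPM in SRA-/- replicates 1, 2 and 3, against 101, 96.3 and 77.5 CPM in wild type replicates 1, 2 and 3. The groups were apart, and wild type replicate 1 was the highest of its group. Its log2 fold change was 0.79 ± 0.18 (SE). The unadjusted p was 0.00174 and the adjusted p 0.675 by edgeR, and DESeq2 and limma-voom called it with adjusted p-values of 0.0314 and 0.0485. With 1 library left out its log2 fold change lay between 0.69 and 0.87. Tnfrsf1a, the other receptor, named after its values were seen, had 164 to 210.0 CPM in SRA-/- and 129 to 202 CPM in wild type libraries (log2 fold change 0.09 ± 0.23).

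Tnip3, a relative of Tnip1, had 3.98, 9.72 and 1.63 CPM in SRA-/- replicates 1, 2 and 3, against 1.07, 1.44 and 1.78 CPM in wild type replicates 1, 2 and 3. The groups overlapped, since SRA-/- replicate 3 lay below wild type replicate 3, and the difference rested in part on SRA-/- replicate 2. Its log2 fold change of 1.84 ± 0.56 (unadjusted p 0.00897 by edgeR, adjusted p 0.9999) was 0.997 without that library, with an unadjusted p of 0.0565, and the unadjusted p was 0.0508 without wild type replicate 1. Il1rl1, the receptor of interleukin 33, was near the limit of detection, with 35, 14 and 14 counts in SRA-/- libraries and 7, 7 and 10 counts in wild type libraries (log2 fold change 1.21 ± 0.47, unadjusted p 0.0293 by edgeR). No library had more than 0.762 CPM of Il1rl1, and its unadjusted p stayed under 0.05 in 1 of the 6 fits with a library left out.

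**Figure D5:**
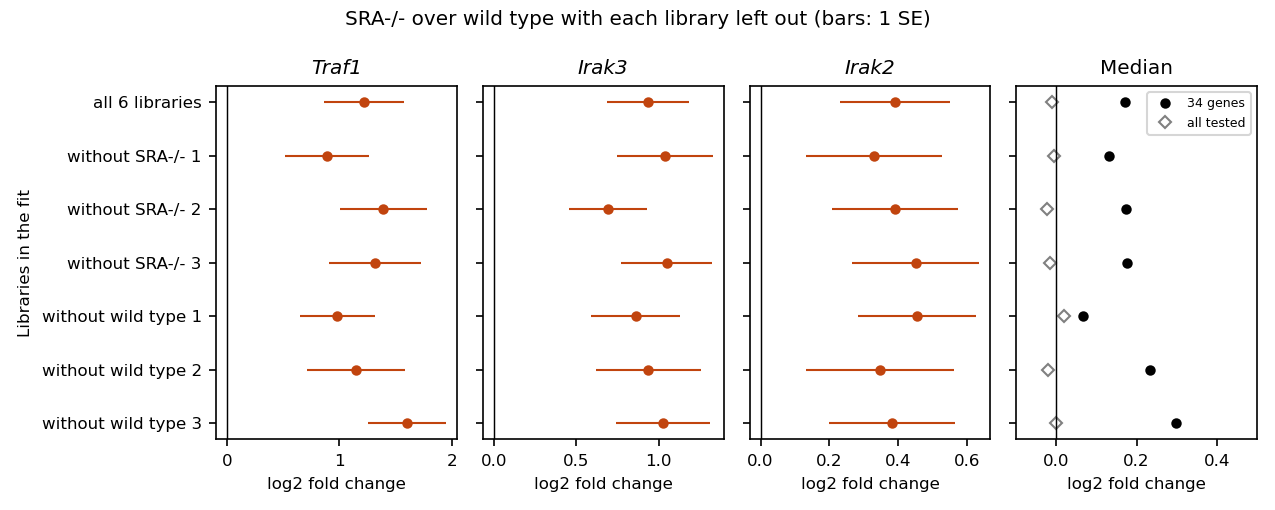
Log2 fold change, SRA-/- over wild type, of Traf1, Irak3 and Irak2 with 1 SE, and the median over the 34 genes and over all tested genes (right panel), with all 6 libraries and with each left out in turn. Traf1, Irak3 and Irak2 stay above 0 in each fit, and the median of the 34 genes runs between 0.066 without wild type replicate 1 and 0.30 without wild type replicate 3.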

How the data were processed

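Total RNA of liver non-parenchymal cells of 6 male mice, 3 SRA-/- and 3 wild type, was sequenced from rRNA-depleted libraries (labels' protocols), and the sample titles gave genotype and replicate number. FastQC, STAR, featureCounts and genome build mm39 are named in the submitters' processing notes. The deposited values are raw counts per gene name, made by the authors with featureCounts 2.0.2 over GENCODE vM26 exons, without strand, per the file headers. The command marks reads as paired but does not ask that pairs be counted once. An even value was found for 68.5% to 71.9% of counts between 1 and 4 and for 53.6% to 55.6% of those between 21 and 100, as when both mates of a fragment are counted. Reads shared by overlapping genes were not counted, which touches 12 of the 34 genes.

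The fit used edgeR 4.0.16 in R 4.3.3 (filterByExpr, TMM, glmQLFit robust, glmQLFTest on group alone), with Benjamini-Hochberg adjustment over 20541 tested genes and a threshold of 0.05. Each SE is the log2 fold change over the square root of F. CPM uses TMM-scaled library sizes, except for cell type markers, which use library totals, and RPKM is CPM per kilobase of the deposited exon length. TMM factors ran from 0.896 to 1.08. At these depths 6 counts, or 3 fragments, are 0.136 to 0.253 CPM, for counting error only, and the 34 genes had 60 to 21742 counts a library. The fit was tested on simulated data with known changes. The smallest two-sided p of an exact permutation test with 3 libraries a group is 0.1, so none was run. Named genes were all 34, in every library where the unadjusted p was under 0.05, where the groups did not overlap or where the gene led its class per length, plus up to 3 other pathway genes per direction by p and the most abundant gene of a marker list. The genes, the classes and the lists were chosen with earlier results of these data known. Alternatives were other scalings, DESeq2 1.42.0, limma-voom (limma 3.58.1) with quality weights, other filters, removal of mitochondrial and hepatocyte genes, the replicate number as a block and each library left out in turn. Protein motifs named in the plan were not used here.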

Additional observations from a re-analysis of the deposited data

How the results depend on the processing

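The count of 0 genes past adjusted p 0.05 was the same under every alternative run, and so was 0 lower at an unadjusted p under 0.05. Genes higher at an unadjusted p under 0.05, 3 by edgeR, numbered 5 by limma-voom with quality weights, which adds Tnip1 and Ikbke. The share by limma-voom was 14.7%, but that of all tested genes rose as well, from 2.32% by edgeR to 7.34%. With 1 library left out the count was 2 to 6 (5.88% to 17.6%), against 1.51% to 4.12% of all tested genes. It was 6 without wild type replicate 3 (17.6%, against 3.02%), where Relb, Tnip1, Tnfaip2 and Ikbke joined and Irak2 did not pass. With 1 library left out, the genes above 0 numbered 24 to 31, the median log2 fold change was lowest without wild type replicate 1 at 0.066 and highest at 0.30 when wild type replicate 3 was dropped, the genes not overlapping between the groups numbered 4 (without wild type replicate 2 or SRA-/- replicate 3) to 9 (without wild type replicate 3) higher and 0 to 1 lower, and the other pathway genes higher at an unadjusted p under 0.05 numbered 2 to 4. Fewer libraries by themselves make such overlap rarer, and no share of all tested genes is at hand for these fits. The counts of genes not overlapping with 1 library left out thus cannot be read as a result about the 34 genes. Directions turned for genes near 0. With library totals alone Traf6 had a log2 fold change of -0.012. By limma-voom Nfkbia had -0.0081, Tnfaip3 -0.037, Cd40 -0.065, Tirap -0.017 and Map3k7 0.0095. With 1 library left out, values ran from -0.16 to 0.29 for Nfkbia, -0.095 to 0.38 for Nfkbie, -0.00075 to 0.16 for Rela, -0.23 to 0.38 for Tnfaip3, -0.22 to 0.42 for Birc3, -0.089 to 0.38 for Ier3, -0.12 to 0.38 for Cd40, -0.092 to 0.46 for Myd88, -0.049 to 0.47 for Ticam1, -0.10 to 0.20 for Tirap, -0.072 to 0.10 for Traf6, -0.079 to 0.17 for Traf3, -0.10 to 0.042 for Map3k7 and -0.13 to 0.042 for Cyld. The cause of these turns was not tested, and 9 of the 34 genes turned without wild type replicate 1.

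With the replicate number as a block, 2 genes were higher at an unadjusted p under 0.05 (5.88%, against 1.72% of all tested genes), Irak2 having 0.0945. With that block Traf6 had a log2 fold change of -0.00086, and 5 genes in all were called against 10 without it. Over all genes the count called was 68 by DESeq2, 75 by limma-voom, 32 with no filter on low counts and 3 to 40 with 1 library left out (40 without SRA-/- replicate 2, 3 without SRA-/- replicate 3, and 4 without SRA-/- replicate 1 or wild type replicate 2). Same-numbered libraries did not deviate together (correlations of their deviations from the group means across genes of -0.29, -0.14 and -0.13), so the numbers are not taken as pairs. Depth was no limit for most of the 34 genes, of which 32 had at least 100 counts in every library. Those that did not were Cd40 (60 to 213 counts) and Traf1 (67 to 544 counts).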
